A study of Rattus norvegicus with 12 samples.

Results

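The genes described here move iron into cells, carry it in the blood and store it: Tfrc, which encodes transferrin receptor 1, Tf, which encodes transferrin, Cp, which encodes ceruloplasmin, and Fth1, which encodes the ferritin heavy chain. They were taken as every probe set, the group of short probes that reports 1 transcript, whose only gene symbol in the array's annotation is one of these 4 names. That rule gave 5 of the 31042 probe sets on the array, 2 for Tfrc and 3 for Cp, so 2 of the 4 listed genes were covered. Tf and Fth1 had no probe set with a single symbol. The 2 probe sets that list Tf also list Srprb, the beta subunit of the signal recognition particle receptor, and the 1 that lists Fth1 also lists its pseudogene Fth1-ps5. These 3 are given under both symbols and are not counted among the members, because the signal cannot be assigned to one of the named genes.

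Male Wistar rats received acrylamide, a small industrial monomer known for damaging nerve fibres, at 30 mg/kg by oral gavage every day for 21 days, or saline on the same schedule. The sciatic nerves, right and left together, the spinal cord and the cerebellum were each profiled on Affymetrix rat expression arrays, which gave 6 groups of 2 arrays (12 in all), and the RNA on each array was pooled from 2 rats. The sample labels give an age of 25 days at the start of dosing and the series text gives 3 weeks, and 1 label calls the control animals solvent-treated. A label also places tissue collection 21 days after treatment, and does not say whether that is counted from the first or the last dose. The labels do not say whether the 3 tissues of a group came from the same rats. The p-values measure the spread between pools, which may be partly technical. All values are array signals on a linear scale, and a probe set was tested in a tissue when its mean signal there was above 110, the level under which the dimmest 40% of tissue means lie.

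Transferrin binds ferric iron in plasma, and the complex enters cells through transferrin receptor 1, the main iron entry route of neurons and of the endothelium of brain capillaries. Ceruloplasmin is a copper-containing ferroxidase. It is secreted by the liver and is anchored to the membrane of astrocytes and other cells by a glycolipid tail, where it converts exported ferrous iron to the ferric form that transferrin binds. Ferritin, made of heavy and light chains, stores iron inside cells, and its heavy chain is itself a ferroxidase. Cells that lack iron stabilise Tfrc mRNA through iron-responsive elements and block translation of ferritin mRNA, so transcript levels report on the receptor more directly than on ferritin.

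The promoters of the 2 genes with members are shown because the 2 genes differed in their tissue pattern, and each sequence is the 250 bases that precede the annotated start in RefSeq's GRCr8 rat assembly. Capitals mark a motif match nearest to the start. In Tfrc (chr11:81690319-81690568, minus strand) they mark ACGTG, the core of the hypoxia response element, at 31 to 27 bases before the start. In Cp (chr2:104368420-104368669, plus strand) they mark TATAAA, the TATA box, at 27 to 22 bases before the start.
Tfrc promoter: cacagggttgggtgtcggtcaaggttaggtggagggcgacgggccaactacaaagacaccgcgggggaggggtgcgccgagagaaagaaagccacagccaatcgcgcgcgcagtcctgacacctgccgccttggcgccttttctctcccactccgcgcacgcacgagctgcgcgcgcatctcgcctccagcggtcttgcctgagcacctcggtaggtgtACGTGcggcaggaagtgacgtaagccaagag
Cp promoter: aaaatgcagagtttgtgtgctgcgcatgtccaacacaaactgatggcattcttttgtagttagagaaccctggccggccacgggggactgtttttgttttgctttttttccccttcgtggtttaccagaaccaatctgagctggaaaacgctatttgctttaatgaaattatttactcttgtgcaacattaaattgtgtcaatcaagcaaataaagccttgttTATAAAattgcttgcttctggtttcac
Both strands were searched for ACGTG, for TATAAA and for TGANNNNGC, the core of the antioxidant response element. ACGTG was found in 16.6% and TATAAA in 12.9% of the 33469 rat promoters in the table. TGANNNNGC, which 34.7% of promoters hold, has no match in either window, and TATAAA in Cp also matched on the minus strand at 29 to 24 bases before the start, overlapping the other match. These matches describe letters and show no binding.

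Defining genes of each tissue were present on its own arrays, and some arrays also carried those of another tissue. The Purkinje cell gene Pcp2 read 13242 and 13909 in acrylamide cerebellum and 12945 and 13646 in saline cerebellum, and Prx, a myelin gene of Schwann cells, read 18215 to 25095 in the sciatic nerve and 46.6 to 70.5 in the cerebellum. In the cord Prx read 5059 and 3626 in acrylamide rats and 5925 and 7312 in saline rats. The 2 sciatic nerve arrays numbered 1 carried cerebellar transcripts: the 7 cerebellar-neuron markers summed to 11475 on acrylamide replicate 1 and 8797 on saline replicate 1, against 780 and 840 on the replicates numbered 2. The first saline spinal cord array summed to 41418 over 7 skeletal muscle markers, against 4275 to 5636 on the other 3 cord arrays. The second acrylamide nerve array stood apart in the same list, at 21746, against 5793 on the first acrylamide nerve array and 7565 and 3228 on the saline nerve arrays. Its Acta1, the actin of skeletal muscle, read 7532, against 519 on the other acrylamide nerve array and 1692 and 202 on the saline nerve arrays. Member values in nerve are given also without both arrays numbered 1, acrylamide values in nerve also without acrylamide replicate 2, and tissue differences that use saline cord also without its replicate 1.

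Tfrc was lower in nerve than in spinal cord of saline rats, and its nerve signal was higher on both acrylamide arrays. Transferrin receptor probe set 1371113_a_at read 964 and 800.3 in acrylamide nerve and 539 and 615 in saline nerve. In the cord it read 1009 and 1035 in acrylamide rats and 963 and 1088 in saline rats, and in the cerebellum 907 and 973 in acrylamide rats and 898 and 941 in saline rats. The nerve groups did not overlap, and the groups of the other 2 tissues did. In such bulk RNA, a change in the number of cells of a type and a change in RNA per cell cannot be told apart. The acrylamide difference in nerve was 0.60 ± 0.12 on the log2 scale (SE), or 1.51-fold, with a 95% interval of 0.33 to 0.86, but its adjusted p in limma with Benjamini-Hochberg correction was 0.701, from an unadjusted p of 0.000601.

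The second Tfrc probe set, 1388750_at, read 3513 and 2846 in acrylamide nerve and 2576 and 2749.5 in saline nerve. It read 4561 and 4184.5 in acrylamide cord and 3889.9 and 4545 in saline cord. Cerebellar signals were 3128 and 3559 in acrylamide rats and 3151.5 and 3397.5 in saline rats. Its 2 acrylamide nerve arrays again lay above both saline arrays, and the cord and cerebellum groups overlapped. The nerve difference was 0.25 ± 0.12 (limma adjusted p = 0.97). Leaving out single arrays, it ranged between 0.10 and 0.40, with 0.10 the value without acrylamide replicate 1. Over 12 arrays the 2 probe sets correlated at r = 0.853, a description over arrays of 3 tissues.

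**Figure D1:**
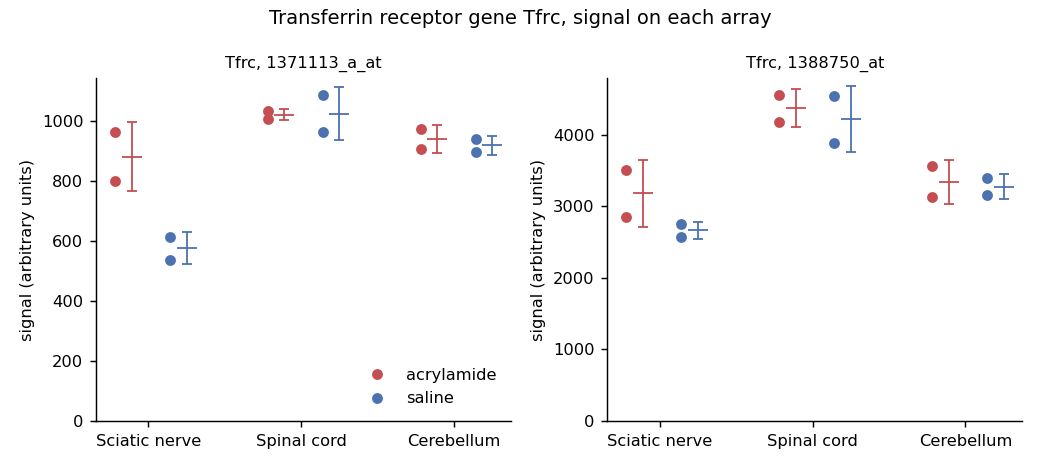
Signal of the 2 Tfrc probe sets on each of the 12 arrays (vertical axis, linear array signal), for acrylamide and saline in sciatic nerve, spinal cord and cerebellum. Points are arrays and bars the mean ± SD of 2 arrays. Saline nerve arrays lie lowest for both probe sets, at 539 and 615 for 1371113_a_at, and both acrylamide nerve arrays lie above them.

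Among saline tissues, transferrin receptor signal passed the test as lower in nerve than in cord for both probe sets. The differences, nerve minus cord, were -0.81 for 1371113_a_at (adjusted p = 0.00034 in limma with Benjamini-Hochberg correction) and -0.66 for 1388750_at (adjusted p = 0.00143). Against the cerebellum the first probe set was lower in nerve by -0.66 (adjusted p = 0.000757), and the second by -0.30 (adjusted p = 0.0519) did not pass. Cord against cerebellum did not pass for the first (0.15, adjusted p = 0.295), and for the second the cord was higher by 0.36 (adjusted p = 0.0316), a call that was lost without saline cord replicate 2 (0.25) or without either saline cerebellum array (0.31 and 0.41). Median centring of the arrays moves nerve against cord by 0.18 and nerve against cerebellum by 0.20 for every gene, so these values are relative to that shift. Without saline cord replicate 1 the nerve minus cord differences were -0.90 and -0.77 (limma adjusted p = 0.00178 and 0.00357), and cord minus cerebellum was 0.24 and 0.47 (limma adjusted p = 0.213 and 0.0304). Without both nerve arrays numbered 1, nerve minus cord was -0.72 and -0.61 (limma adjusted p = 0.000313 and 0.00129), and nerve minus cerebellum was -0.57 and -0.25 (limma adjusted p = 0.00111 and 0.0795).

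Ceruloplasmin signal was highest in nerve, then cord, then cerebellum, and its signal was higher with acrylamide on most arrays without passing the test. Probe set 1368418_a_at read 2141 and 2692 in acrylamide nerve and 1915 and 1313 in saline nerve. In the cord the same probe set read 916 and 945 in acrylamide rats and 838 and 724 in saline rats. In the cerebellum it read 343 and 442 in acrylamide rats and 347.5 and 245 in saline rats. The acrylamide arrays were above both saline arrays in nerve and cord, and overlapped with saline in the cerebellum, where the higher saline array read 347.5.

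Probe set 1368419_at, also for Cp, read 2352 and 2632 in acrylamide nerve and 2053 and 1550.0 in saline nerve. In the cord it read 990.0 and 775 in acrylamide rats and 729 and 682 in saline rats, and in the cerebellum 299.5 and 347 in acrylamide rats and 269 and 167 in saline rats. All 3 tissues had both acrylamide arrays above both saline arrays. Probe set 1368420_at read 549 and 659 in acrylamide nerve and 493 and 386 in saline nerve, and 361 and 301 in acrylamide cord and 282 and 215.5 in saline cord. In the cerebellum it read 124 and 101 in acrylamide rats and 95.1 and 77.0 in saline rats, close to the limit of 110, and was not tested there. The 3 Cp probe sets tracked each other closely over the 12 arrays (r = 0.979 to 0.994), again across tissues.

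**Figure D2:**
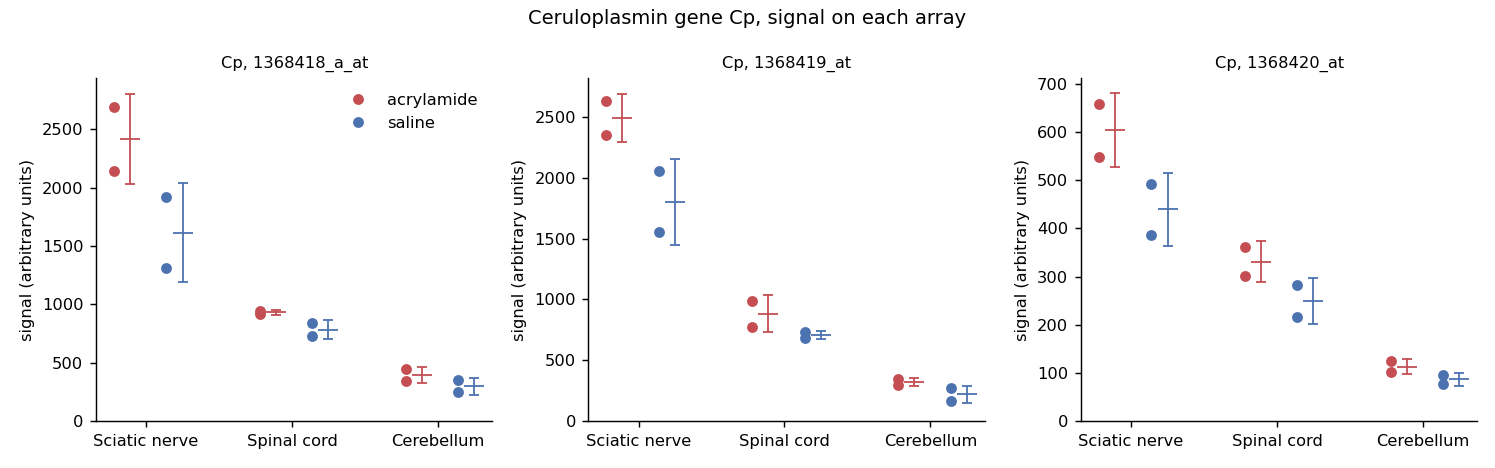
Signal of the 3 Cp probe sets on each of the 12 arrays (vertical axis, linear array signal), for acrylamide and saline in sciatic nerve, spinal cord and cerebellum. Points are arrays and bars the mean ± SD of 2 arrays. Nerve arrays are highest for every probe set, and for 1368419_at both acrylamide arrays lie above both saline arrays in each tissue.

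In saline rats, all 3 Cp probe sets passed the test as higher in nerve than in cord and as higher in cord than in cerebellum. Nerve exceeded cord by 1.01, 1.32 and 0.78 on the log2 scale for 1368418_a_at, 1368419_at and 1368420_at (limma adjusted p = 0.00372, 0.000776 and 0.00778). The call for 1368420_at was lost without saline cord replicate 2 (0.60) or without saline nerve replicate 1 (0.61). Cord exceeded cerebellum by 1.37, 1.66 and 1.37 (limma adjusted p = 0.000862, 0.000266 and 0.000453). Without saline cord replicate 1, nerve exceeded cord by 1.11, 1.37 and 0.97, and cord exceeded cerebellum by 1.26, 1.61 and 1.19, with limma adjusted p between 0.00323 and 0.0135. Without both nerve arrays numbered 1, nerve exceeded cord by 0.74, 1.12 and 0.61 (limma adjusted p = 0.0105, 0.00249 and 0.0408). Nerve exceeded cerebellum by 2.38, 2.98 and 2.15 (2.11, 2.78 and 1.98 without the nerve arrays numbered 1), and across the 27 settings tried the largest limma adjusted p of these 3 was 0.000257. Of the 5 member probe sets, 4 were called higher and 0 lower in cord against cerebellum, 3 higher and 2 lower in nerve against cord, and 3 higher and 1 lower in nerve against cerebellum. Over all probe sets tested, 53.1%, 57.9% and 69.7% were called in those 3 comparisons, so a called share near these values is not particular to iron genes.

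Several marker sums moved with Cp across tissues. The 7 capillary endothelium markers summed to 13337 and 15943 in saline nerve, 8787 and 8559 in saline cord and 4959 and 5399 in saline cerebellum. The 5 fibroblast and meningeal markers summed to 85700 and 72005, 23728 and 20829, and 4743 and 3696 in the same 3 tissues. The 7 fat cell markers summed to 39638 and 9598, 985 and 886, and 636 and 635. Not every listed gene followed its sum. Igf2, a meningeal marker, read 1493 and 984 in saline nerve against 2218 and 2011 in saline cerebellum. Abcb1a, an endothelial marker, read 374 and 501 in saline nerve and overlapped with saline cord and cerebellum. The endothelial markers Flt1 and Slco1a4 also overlapped between saline nerve and saline cord. Flt1 read 622 and 524 in nerve against 553 and 437 in cord, and Slco1a4 2655 and 4263 against 3084 and 2687. Cldn5, Pecam1, Tek and Kdr were higher in saline nerve than in saline cord without overlap. The 6 Schwann cell markers on the array, of 8 listed, summed to 84553 and 104823 in saline nerve, 39476 and 42199 in saline cord and 1873 and 1651 in saline cerebellum. The sum of astrocyte markers, of which 8 of 9 were on the array, ran the other way between nerve and cord. It was 38081 and 36002 in saline nerve against 82001 and 81674 in saline cord. S100b, most of the nerve sum, was not lower in nerve, at 23293 and 27963 against 21900 and 21601 in cord. The other astrocyte markers were lower in nerve, such as Aqp4 at 1499 and 93.3 against 13804 and 13103. The 5 choroid plexus markers on the array, of 6 listed, did not follow Cp. They summed to 7092 and 4354 in saline nerve, 617 and 822 in saline cord and 14426 and 18874 in saline cerebellum, where Cp was lowest. Most of the cerebellar sum was Ttr, and most of the nerve sum was Aqp1. The part of these cell types in the Cp signal was not tested.

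No member passed the test for acrylamide in any tissue. By limma with Benjamini-Hochberg correction, 0 of 5 probe sets passed in nerve and in cord and 0 of 4 tested passed in the cerebellum. Of all probe sets tested, 0.00553% were called in nerve, 0.0% in cord and 0.0% in cerebellum. At an unadjusted p under 0.05, 3 members passed in nerve, 0 in cord and 1 in cerebellum, against 5.1%, 2.87% and 2.71% of all probe sets. Both acrylamide arrays lay above both saline arrays for 5 of 5 members in nerve, for 3 of 5 in cord and for 1 of 4 tested in cerebellum, while 13.3%, 17.7% and 17.1% of all probe sets did so. The 5 probe sets report only 2 genes, and probe sets of 1 gene share its transcript, so these counts do not stand for 5 separate observations.

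Averaged over the 3 tissues, the Cp differences were 0.41 ± 0.13 for 1368418_a_at, 0.45 ± 0.13 for 1368419_at and 0.39 ± 0.11 for 1368420_at (SE). Their adjusted p-values in limma were 0.726, 0.639 and 0.668, with unadjusted p of 0.01, 0.00587 and 0.00732. Cp differences were above 0 in 9 of 9 combinations of probe set and tissue, and those of Tfrc in 5 of 6. Counted by probe set, the 3 Cp probe sets and Tfrc 1388750_at were above 0 in all 3 tissues, as were 15.1% of all 21347 probe sets. Tfrc 1371113_a_at was not, at -0.003 in cord. The 3 Cp probe sets report 1 gene, and 1368420_at was not above the filter in cerebellum. The Tfrc averages were 0.21 ± 0.07 for 1371113_a_at and 0.11 ± 0.07 for 1388750_at (limma adjusted p = 0.755 and 1). By limma, 0 members passed in the average and 4 had an unadjusted p under 0.05, against called shares of 0.00937% and 5.56% of all probe sets. A test of whether the acrylamide difference varied between tissues gave adjusted p = 1 in limma for all 5, with an unadjusted p of 0.00867 for Tfrc 1371113_a_at, where 0.0% of all probe sets were called and 2.75% had an unadjusted p under 0.05.

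**Figure D3:**
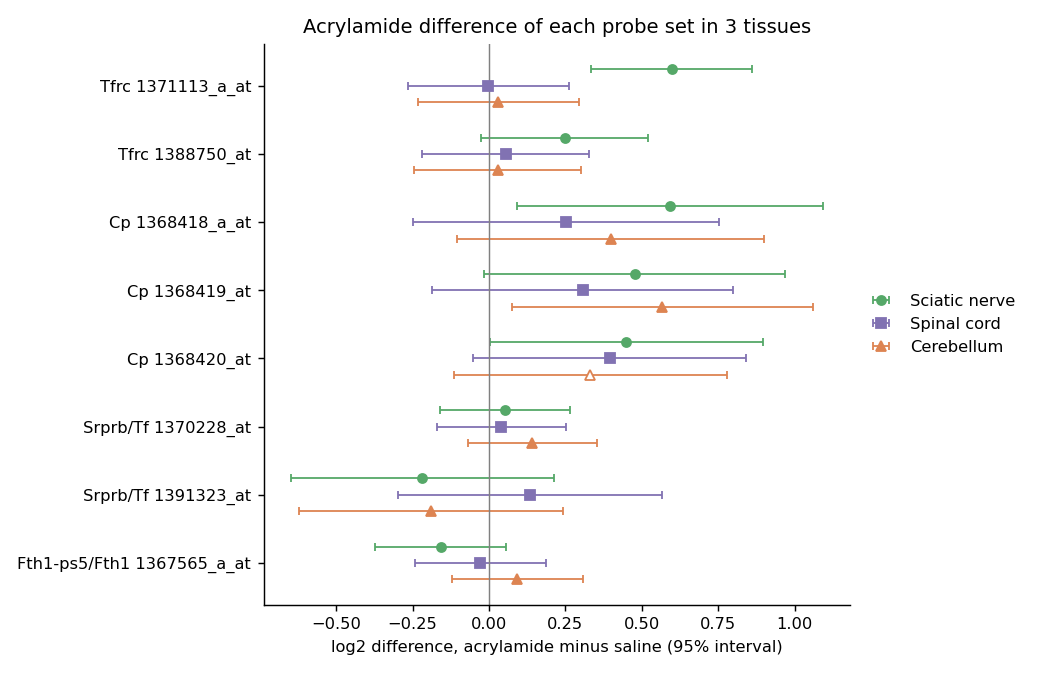
Acrylamide minus saline difference on the log2(signal + 16) scale for each probe set in sciatic nerve, spinal cord and cerebellum, with 95% intervals. The open marker is Cp 1368420_at in cerebellum, which was not above the filter. The interval for Tfrc 1371113_a_at in nerve, 0.33 to 0.86, excludes 0, yet its adjusted p is 0.701.

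Markers of other cell types were read beside these signals. In the cord, where Cp was higher on both acrylamide arrays, the 10 microglia and macrophage markers summed to 8275 and 7986 in acrylamide rats and 5683 and 6010 in saline rats. In the cerebellum they summed to 2817 and 3098 in acrylamide rats and 2215 and 2249 in saline rats. Astrocyte markers summed to 85820 and 90562 in acrylamide cord and 82001 and 81674 in saline cord, and to 69786 and 72673 in acrylamide cerebellum and 67239 and 67750 in saline cerebellum. Microglia and astrocyte sums were thus higher without overlap in acrylamide rats in both tissues, as were 17.7% of all single probe sets in cord and 17.1% in cerebellum. Of the astrocyte markers in cerebellum, Gfap and Gja1 were higher without overlap, Slc1a3 was lower without overlap and the rest overlapped. Of the microglia and macrophage markers there, Cd68 was lower without overlap, C1qc, Cx3cr1 and Ptprc overlapped and the rest were higher. In cord the astrocyte markers S100b, Aldoc and Slc1a2 and the microglia and macrophage markers Cd68 and Tyrobp overlapped. The rest of both lists were higher there without overlap. In the cord, Schwann cell markers summed to 33354 and 30750 in acrylamide rats and 39476 and 42199 in saline rats. Fibroblast and meningeal markers summed there to 18185 and 15074 in acrylamide rats and 23728 and 20829 in saline rats. Both sums were lower without overlap, and the share of all probe sets that lay below in cord is not given here. Of these markers, Ngfr and Igf2 overlapped in cord, and the rest were lower without overlap. The fibroblast and meningeal sum ran the other way in the cerebellum, at 5065 and 5306 in acrylamide rats and 4743 and 3696 in saline rats. In nerve the microglia and macrophage markers summed to 4451 and 4977 in acrylamide rats and 8584 and 2408 in saline rats, and 7 fat cell markers summed to 12019 and 15813 in acrylamide rats and 39638 and 9598 in saline rats. The part of these cells in the Cp and Tfrc values was not tested.

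Without the 2 nerve arrays numbered 1, which leaves 1 nerve array per treatment and assumes it varies like the other groups, the Tfrc difference in nerve was 0.37 for 1371113_a_at and 0.05 for 1388750_at (limma adjusted p = 0.174 and 0.899). The Cp differences in nerve were then 1.03, 0.76 and 0.75 (limma adjusted p = 0.0596, 0.197 and 0.185). Among member values in that setting, the average over tissues of Cp 1368418_a_at passed, at 0.56 (limma adjusted p = 0.0474), as 1 of 274 probe sets called in all, or 1.28% of those tested. That setting sets acrylamide nerve replicate 2, with a skeletal muscle sum of 21746, against saline nerve replicate 2, with 3228, and the part of muscle in these values was not tested. Without acrylamide nerve replicate 2 alone, the nerve differences of Cp were 0.43, 0.40 and 0.32 (limma adjusted p = 0.789, 0.822 and 0.844) and the average of 1368418_a_at was 0.36 (limma adjusted p = 0.72). The Tfrc differences in nerve were then 0.73 and 0.40 (limma adjusted p = 0.717 for both). Leaving out single arrays, the nerve difference of Cp 1368418_a_at ranged between 0.32 and 0.86 and that of Tfrc 1371113_a_at between 0.47 and 0.73, with no call.

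The probe sets shared with other genes gave no called acrylamide difference. Srprb/Tf probe set 1370228_at read 7757 and 6963 in acrylamide nerve and 7792 and 6444 in saline nerve. It read 16464.5 and 17447 in acrylamide cord and 16798.5 and 16175 in saline cord, and 6732 and 6642 in acrylamide cerebellum and 5859 and 6268 in saline cerebellum. Only in the cerebellum did the groups not overlap, and there the difference was 0.14 ± 0.09 (limma adjusted p = 1). The dim Srprb/Tf probe set 1391323_at read 125 and 108 in acrylamide nerve and 156 and 121 in saline nerve, 548 and 663 in acrylamide cord and 516 and 582 in saline cord, and 190.0 and 135 in acrylamide cerebellum and 193 and 177 in saline cerebellum, with overlap in each tissue.

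Both Srprb/Tf probe sets passed the test as lower in nerve than in cord and higher in cord than in cerebellum. Nerve minus cord was -1.22 and -1.88 (limma adjusted p = 1.11e-05 and 4.72e-05), and cord minus cerebellum was 1.44 and 1.49 (limma adjusted p = 5.88e-06 and 0.000231). Nerve minus cerebellum was 0.23 and -0.39 (limma adjusted p = 0.0555 and 0.0958). Over the 27 settings tried, the limma adjusted p of the first of these reached 0.817. For 1370228_at that difference passed with median centring (0.42, limma adjusted p = 0.000858), without saline nerve replicate 2 (0.36, adjusted p = 0.00566) and over both treatments (0.18, adjusted p = 0.0304), while for 1391323_at it passed over both treatments (-0.40, limma adjusted p = 0.0206). Without both nerve arrays numbered 1, nerve minus cord was -1.35 and -2.04 (limma adjusted p = 1.69e-07 and 2.4e-05) and nerve minus cerebellum was 0.09 and -0.55 (limma adjusted p = 0.3 and 0.0433). Without saline cord replicate 1, nerve minus cord was -1.19 and -1.96 and cord minus cerebellum 1.41 and 1.57, and these 4 differences passed. Transferrin is made by oligodendrocytes in the central nervous system, and the 11 oligodendrocyte markers on the array summed to 43657 and 48843 in saline nerve, 107947 and 109606 in saline cord and 41058 and 48143 in saline cerebellum. In saline nerve that sum was mostly Mbp (23018 and 26288) and Cnp (10641 and 14312). Mbp, Cnp, Mag and Sox10 read higher in saline nerve than in saline cerebellum. Mog, Mobp, Opalin, Ermn, Olig1 and Cldn11 read lower, and Olig2 overlapped. Mog read 286 and 13.8 in saline nerve, 6203 and 6313 in saline cord and 1934 and 2106 in saline cerebellum. Whether the Srprb/Tf signal comes from Tf or from Srprb cannot be told apart.

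The Fth1-ps5/Fth1 probe set 1367565_a_at read 23763 and 26640.3 in acrylamide nerve and 26488 and 29765 in saline nerve, 20338 and 22979 in acrylamide cord and 22499 and 21632 in saline cord, and 19115.5 and 20673 in acrylamide cerebellum and 17578 and 19788 in saline cerebellum. The groups overlapped in each tissue, and the nerve difference was -0.16 ± 0.10 (limma adjusted p = 0.999). In saline rats it was higher in nerve than in cord by 0.35 (limma adjusted p = 0.0114) and than in cerebellum by 0.59 (limma adjusted p = 0.00043), but quantile normalization reduced these to 0.06 (adjusted p = 0.258) and 0.07 (adjusted p = 0.162). The call against the cord was also lost without saline cord replicate 2 (0.32) or saline nerve replicate 2 (0.26). Without both nerve arrays numbered 1, the nerve differences were 0.43 against the cord and 0.67 against the cerebellum (limma adjusted p = 0.0034 and 0.000141), and the cord was then called above the cerebellum as well, by 0.24 (adjusted p = 0.022). Without saline cord replicate 1, nerve exceeded cord by 0.38 (limma adjusted p = 0.0368).

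**Figure D4:**
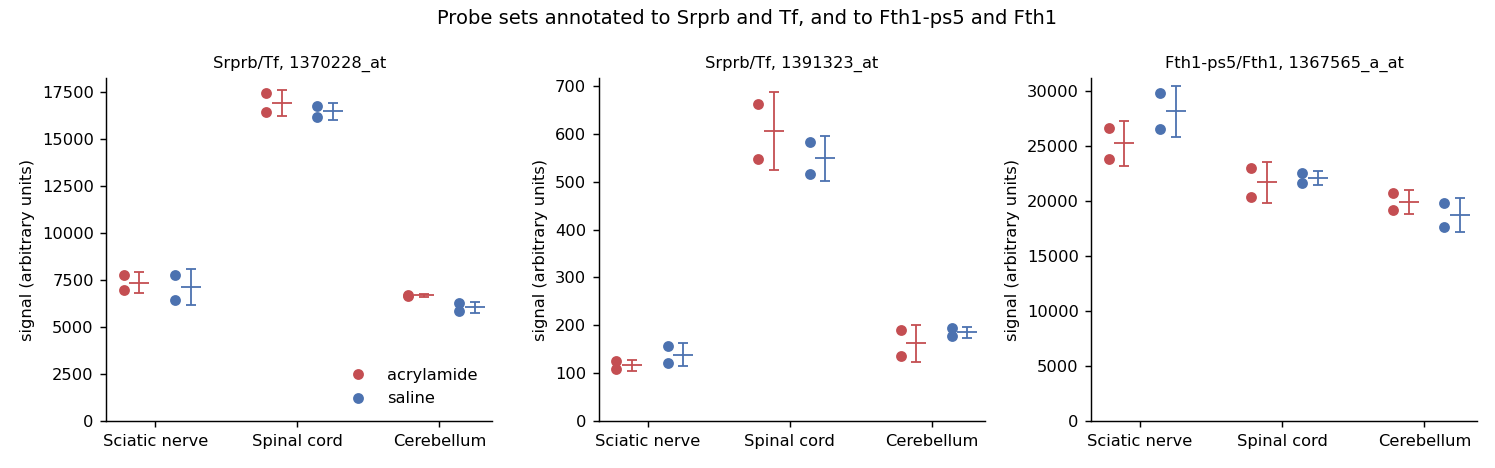
Signal on each of the 12 arrays (vertical axis, linear array signal) of the 2 Srprb/Tf probe sets and the Fth1-ps5/Fth1 probe set, for acrylamide and saline in sciatic nerve, spinal cord and cerebellum. Points are arrays and bars the mean ± SD of 2 arrays. Cord arrays are highest for both Srprb/Tf probe sets, at 16175 to 17447 for 1370228_at.

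Other genes of iron handling were followed through 6 lists: uptake and its regulation, storage and release, export, sensing, mitochondrial iron and iron-sulfur assembly, and heme synthesis and breakdown. Of 55 genes, 48 were on the array, and 38 were tested in nerve, 40 in cord and 33 in cerebellum. Acrylamide called none of the tested genes by limma in any tissue. Of them, 0 had an unadjusted p under 0.05 in nerve, cord or cerebellum, against 5.1%, 2.87% and 2.71% of all probe sets. Averaged over tissues, 1 was higher and 2 were lower at an unadjusted p under 0.05, of 41 tested, against 5.56% of all probe sets. Their median difference was -0.05 in nerve, 0.01 in cord and 0.02 in cerebellum, next to medians of 0.0008, 0.0042 and -0.0002 over all probe sets.

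The lowest p-values in the average belonged to heme genes and to Glrx5, a mitochondrial glutaredoxin of iron-sulfur assembly. Ppox, which makes protoporphyrin, read 193 and 196 in acrylamide nerve and 210.1 and 238 in saline nerve, 241 and 184.5 in acrylamide cord and 263 and 289 in saline cord, and 145 and 171 in acrylamide cerebellum and 197 and 214 in saline cerebellum. Both acrylamide arrays lay below both saline arrays in each tissue, and the average difference was -0.30 ± 0.09 (limma adjusted p = 0.724). Ppox was named for having the smallest p of the 41 genes tested. The share of all probe sets that lay below in each tissue was not counted. Hmox1, the inducible heme oxygenase that releases iron from heme, read 288 and 299 in acrylamide nerve and 294 and 215 in saline nerve, 267 and 362 in acrylamide cord and 254 and 253 in saline cord, and 181 and 168 in acrylamide cerebellum and 125 and 131.5 in saline cerebellum, without overlap in cord and cerebellum. Of all 21347 probe sets, 7.93% had both acrylamide arrays above both saline arrays in at least 2 tissues. The average difference of Hmox1 was 0.30 ± 0.10 (limma adjusted p = 0.767). The average of Glrx5 was -0.10 ± 0.04 (limma adjusted p = 0.821). All 7 tested genes of the mitochondrial list had a difference below 0 in nerve, and 0 passed. In cord 2 of 7 and in cerebellum 4 of 6 lay above 0. Over all probe sets, 50.2%, 51.4% and 49.9% were above 0 in nerve, cord and cerebellum.

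**Figure D5:**
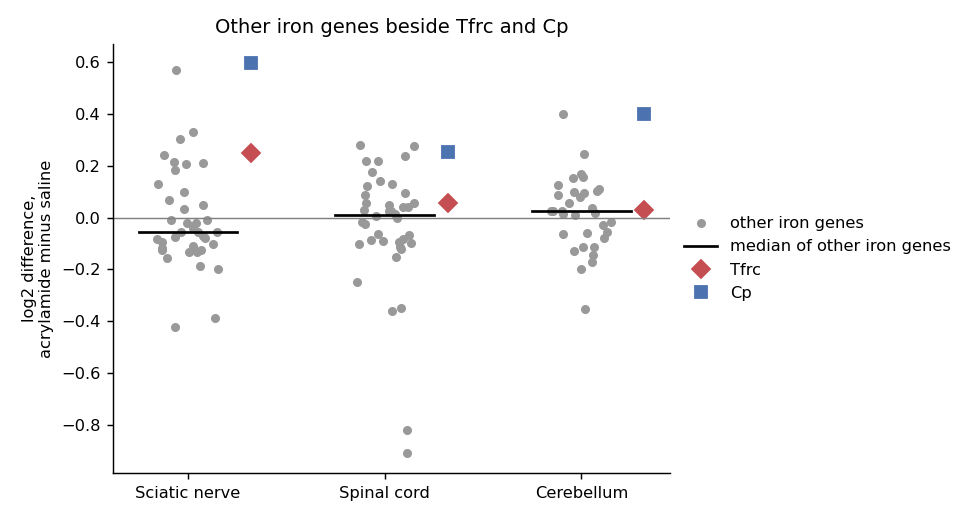
Acrylamide minus saline difference (vertical axis, log2 scale) in sciatic nerve, spinal cord and cerebellum for the other iron genes (grey dots, 1 probe set per gene), with their median as a black line, Tfrc 1388750_at as a diamond and Cp 1368418_a_at as a square. In nerve the median lies at -0.05, the diamond at 0.25 and the square at 0.59.

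Many of the iron genes differed between tissues of saline rats. In cord against cerebellum 20 were called higher and 5 lower of 40 tested, where 26.0% and 27.1% of all probe sets were, and the heme list gave 11 higher and 0 lower of 15. In nerve against cord 13 were called higher and 15 lower of 41, where 29.1% and 28.8% were, and the heme list gave 2 higher and 10 lower of 16. Without saline cord replicate 2 the 28 calls became 17. In nerve against cerebellum 17 were called higher and 7 lower of 39, where 30.6% and 39.0% were.

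The heme list members named by the smallest p were Cpox, the coproporphyrinogen oxidase, Hmox2, the constitutive heme oxygenase, and Slc48a1. Slc48a1 was higher in saline cord than in saline cerebellum by 1.22 (limma adjusted p = 5.25e-05). Glrx5, of the mitochondrial list, was higher there by 0.85 (limma adjusted p = 1.71e-05). Cpox read 668 and 644 in saline nerve, 1547 and 1715 in saline cord and 676 and 700.1 in saline cerebellum, so that cord was higher than cerebellum by 1.22 (limma adjusted p = 9.61e-06) and nerve was lower than cord by -1.29 (limma adjusted p = 6.35e-06). Hmox2 read 748.5 and 612 in saline nerve against 1572 and 1431 in saline cord, a difference of -1.13 (limma adjusted p = 2.61e-05). Slc39a8, which imports divalent metals, read 1707 and 2455 in saline nerve against 342.5 and 302 in saline cord, a difference of 2.61 (limma adjusted p = 4.21e-06). Steap4, a metalloreductase, was at least 17.6-fold higher in nerve than in cerebellum, where its signals of 18.5 and 15.3 lay under the filter.

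Genes whose signal was most like Tfrc 1388750_at over the 12 arrays were Nckap1 (r = 0.949), Tsr2 (r = 0.949) and Ttc4 (r = 0.947), out of 15663 probe sets compared. The most alike to Cp 1368418_a_at were Bgn, which encodes the matrix proteoglycan biglycan (r = 0.991), Tie1, an endothelial receptor kinase (r = 0.99), and Il10rb (r = 0.989). These 12 points share 3 tissues, so differences between tissues enter each correlation. After each array was set against its tissue mean, the most alike were Hnrnpdl (r = 0.948), Cds2 (r = 0.92) and Myrf (r = 0.896) for Tfrc, and Crebbp (r = 0.944), Trnau1ap (r = 0.941) and Ifit2 (r = 0.934) for Cp.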

How the data were processed

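The authors deposited 1 intensity per probe set and array on a linear scale, and the submitters' processing notes name GCOS 1.1 as the software. Which algorithm, background correction, scaling target and genome build were used was not given in the sources read. Array medians ran from 161.0 to 198.7. Precision is limited by how few arrays there are. The annotation gave 20826 probe sets 1 symbol, 436 several and 9780 none, of which 20758 symbols were set by gene ID, 2 by accession and 66 kept, and 57 control probe sets were left out.

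Signals were taken as log2(signal + 16) and fitted with limma 3.58.1 in R 4.3.3 (statmod 1.5.0 for the random block): 1 mean per group of tissue and treatment, moderated variances with a trend, two-sided tests, Benjamini-Hochberg over all probe sets tested in a contrast, and a threshold of 0.05. A log2 difference understates the change of dim probe sets. A probe set was tested where its tissue mean lay above the 40th percentile of all such means. The fit held 21347 probe sets with 6 residual degrees of freedom. It was tested on simulated data with larger differences than the acrylamide differences of the members, added to bright probe sets in cerebellum. That test therefore does not cover differences of the members' size.

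Named genes were all probe sets with a listed single symbol, and of the iron lists up to 4 per contrast with the smallest p. Likeness was ranked over probe sets above the filter. The members, lists and tests were chosen with earlier results of these data known. Alternatives were quantile normalization, median centring, pseudocounts 1 and 64, no filter or the 60th percentile, other variance settings, replicate blocks, a threshold of 0.1, a 2-fold minimum, single-tissue fits and leaving out arrays.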

Additional observations from a re-analysis of the deposited data

How the results depend on the processing

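No setting called an acrylamide difference of a member except the average of Cp 1368418_a_at without both nerve arrays numbered 1 (0.56), where 1 member was called instead of 0, and 1 other iron gene, Steap2, in nerve instead of 0 (0.64, adjusted p = 0.0171), in a setting that called 2.13% of all probe sets in nerve. Small acrylamide differences changed sign, and the cause was not tested: with median centring, Tfrc 1371113_a_at in cord became 0.019 and Srprb/Tf 1370228_at in nerve -0.001, and with quantile normalization Fth1-ps5/Fth1 became 0.035 in cord and 0.028 in the average. Leaving out 1 array at a time ranged over -0.019 to 0.080 for Tfrc 1371113_a_at and -0.065 to 0.121 for Tfrc 1388750_at in cerebellum, over -0.089 to 0.084 and -0.057 to 0.167 in cord, over -0.413 to 0.034 for Srprb/Tf 1391323_at in cerebellum, over -0.002 to 0.082 and -0.084 to 0.189 for Srprb/Tf 1370228_at in cord and nerve, and over -0.117 to 0.059 for Fth1-ps5/Fth1 in cord. For Tfrc 1388750_at in cord against cerebellum, quantile normalization (0.31), no trend (0.36) and the 2-fold minimum (0.36) lost the call, and leaving out arrays gave 0.25 to 0.47. In nerve against cord the 2-fold minimum lost its call (-0.66). In nerve against cerebellum quantile normalization (-0.40), robust variances (-0.30) and a threshold of 0.1 (-0.30) gained it, as did leaving out either acrylamide nerve array (-0.30), and leaving out arrays gave -0.35 to -0.24. Other settings weakened it, and over the 27 settings its limma adjusted p there reached 0.529. The 2-fold minimum left 8 of 25 other iron genes in cord against cerebellum, 8 of 28 in nerve against cord, 10 of 24 in nerve against cerebellum, and 2 of 5 members in nerve against cord, because it drops smaller called differences. Leaving out 1 array gave 17 to 26 other iron genes in nerve against cord. Same-numbered acrylamide and saline arrays deviated together at r = 0.43 in nerve, -0.07 in cord and 0.06 in cerebellum. The nerve arrays numbered 1 also share cerebellar transcripts, but the labels give no shared animal or batch and the pairs of the other tissues do not move together, so the numbers were not used as pairs. With the random replicate block, Tfrc 1388750_at in nerve against cerebellum was -0.30 (limma adjusted p = 0.0396) and Srprb/Tf 1370228_at 0.23 (limma adjusted p = 0.0467; 0.0239 with the fixed replicate block), and neither replicate block changed an acrylamide call of a member. Groups of 2 pooled arrays limit what could be detected.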
